A study of Mus musculus with 28 samples.

Results

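The genes described here are 10 members of the interleukin 1 and inflammasome system, Il1a, Il1b, Il18, Il1rn, Il1r1, Il1r2, Nlrp3, Nlrp1a, Casp1 and Casp4. They were taken by gene symbol, and all were found among the 29068 symbols of the count table. All 10 had enough counts for the test, as did 18107 genes in all. Skin from the wound site of C57BL/6J mice with intact Mlkl was sequenced in 28 libraries, 4 on each of 7 days, under the treatment label of natural wound healing and without any drug or second genotype. Per the methods, the mice were 8 weeks old, a 6 mm punch removed the back skin down to the fascia, and the whole wound with its scab and margins was taken, so that each library mixes epidermis, dermis, scab and infiltrating cells. The days are labelled Day0, Day3, Day5, Day7, Day10, Day12 and Day14. The series text places the control group, Day0, at 0 days from injury. The study's own sampling starts at day 1, which it counts as the day of wounding, and no group is labelled Day1. Whether Day0 skin was taken before or at wounding is not given in the sources used here and bears on every comparison with Day0. The series text also speaks of 5 repeats a day, and 4 libraries a day were analysed here. The labels do not say which animal gave which library, and p-values measure the spread between these libraries.

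Interleukin 1 alpha and interleukin 1 beta are the agonists of this system and act through the same receptor, IL1R1. Interleukin 1 alpha is active as it is made and is released from damaged cells such as keratinocytes, whereas interleukin 1 beta and interleukin 18 are made as inactive precursors that caspase-1 cleaves. The receptor antagonist encoded by Il1rn occupies IL1R1 without a signal, and IL1R2 is a decoy that binds the agonists but lacks a signalling domain. NLRP3 and NLRP1A are sensors that assemble inflammasomes, the complexes in which caspase-1 becomes active. Casp4 is the mouse gene for caspase-11, which senses bacterial lipopolysaccharide in the cytosol and cuts gasdermin D. In skin wounds these cytokines come mainly from neutrophils, macrophages and keratinocytes.

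Il1a and Il1b lie 54382 bases apart on chromosome 2, at chr2:129299609-129310186 and chr2:129364569-129371164 on the minus strand, and Casp1 and Casp4 lie 1567 bases apart on chromosome 9, at chr9:5298517-5307281 and chr9:5308849-5336791 on the plus strand. Coordinates and sequences are RefSeq's for GRCm38.p6, the build that the submitters' processing notes call mm10, and all 10 members were matched by symbol. The 250 bases before the start that the RefSeq promoter table gives for these 4 genes are shown because the genes of each pair are neighbours whose transcripts moved by very different amounts in the wound. Capitals mark every match, on either strand, to 5 motifs, which are the kappaB motif, the TATA box TATAAA, the C/EBP motif TTNNGNAA, the AP-1 motif TGANTCA and the PU.1 core GAGGAA.
Il1a, chr2:129309973-129310222, minus strand: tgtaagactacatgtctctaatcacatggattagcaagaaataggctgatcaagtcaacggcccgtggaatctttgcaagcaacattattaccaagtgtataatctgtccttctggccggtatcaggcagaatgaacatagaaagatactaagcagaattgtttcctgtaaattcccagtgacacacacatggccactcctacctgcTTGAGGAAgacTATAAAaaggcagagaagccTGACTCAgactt
Il1b, chr2:129371140-129371389, minus strand: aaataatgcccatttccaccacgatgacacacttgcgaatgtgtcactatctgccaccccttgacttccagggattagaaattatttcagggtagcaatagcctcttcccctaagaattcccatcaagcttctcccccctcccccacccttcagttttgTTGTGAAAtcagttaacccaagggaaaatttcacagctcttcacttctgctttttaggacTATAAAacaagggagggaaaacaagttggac
Casp1, chr9:5298267-5298516, plus strand: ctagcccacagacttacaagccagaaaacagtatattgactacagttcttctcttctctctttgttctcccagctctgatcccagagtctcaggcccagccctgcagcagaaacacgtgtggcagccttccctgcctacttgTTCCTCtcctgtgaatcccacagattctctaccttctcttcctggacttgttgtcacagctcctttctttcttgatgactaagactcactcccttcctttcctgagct
Casp4, chr9:5308599-5308848, plus strand: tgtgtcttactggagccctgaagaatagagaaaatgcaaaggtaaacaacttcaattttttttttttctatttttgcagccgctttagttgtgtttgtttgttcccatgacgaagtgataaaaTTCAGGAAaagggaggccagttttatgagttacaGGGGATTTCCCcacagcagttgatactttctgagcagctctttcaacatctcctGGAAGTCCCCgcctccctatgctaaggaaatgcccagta
Positions count this start as 0. For Il1a and Il1b the start lies inside the gene coordinates given above, which reach further upstream, so that their windows overlap the annotated 5′ end of the gene. Il1a and Il1b both have a TATA box, from -32 to -27 and from -31 to -26. The C/EBP match of Il1a, from -43 to -36, contains its PU.1 match, and its AP-1 match runs from -12 to -6. The Casp4 sequence has a C/EBP match from -127 to -120, overlapping kappaB matches on both strands between -93 and -83, and a further kappaB match from -39 to -30. The Casp1 sequence matched the PU.1 core alone, from -108 to -103 on the other strand. The search covered the 300 bases from 250 before to 50 after each start, of which the last 50 are not printed. In windows of this length kappaB was found in 8.46% of all 32851 promoters of the table, the TATA box in 13.6%, C/EBP in 40.7%, AP-1 in 7.81% and PU.1 in 28.3%. Of the 15 promoters listed for the members, 4 matched kappaB, 4 the TATA box, 11 C/EBP, 2 AP-1 and 4 PU.1. Some members have several promoters. By gene, kappaB was found for Il1r1, Nlrp3 and Casp4, the TATA box letters for Il1a, Il1b, Il18 and Il1rn, and AP-1 for Il1a and Il1rn. The TATAAA matches of Il18, from -175 to -170, and of Il1rn, from 14 to 19 after a start, lay on the other strand, away from the position seen in Il1a and Il1b. A match is a stretch of letters and not a measured binding site.

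The total count on genes was between 36706513 and 40655764 per library. The spread among replicates was largest on Day0, with a biological coefficient of variation of 26.4% against 5.70% to 10.8% on the later days, and the fit used 1 dispersion per gene for all days. On Day0, replicates 2 and 3 stood apart from replicates 1 and 4. Fibroblast markers summed to 55953 and 53716 CPM (counts scaled to the TMM-adjusted library total) in replicates 2 and 3 and to 24995 and 14282 in replicates 1 and 4, and skeletal muscle markers to 16376 and 16695 against 26356 and 27456. Results of the 10 members against Day0 were also computed with each pair alone and are given in this way where a call depended on the pair. Levels are given as FPKM, which scale counts to gene length and library total and so can be compared between genes. Differences are log2 fold changes of counts from edgeR's quasi-likelihood test with TMM normalization, called at a Benjamini-Hochberg adjusted p under 0.05 over the 18107 genes tested.

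On Day3 the wound held far more transcript of the agonist Il1b and of the sensor Nlrp3 than on Day0. Of the 10 members, 8 were called higher on Day3 and 1, Casp1, lower, a call that depended on the Day0 libraries used, where 31.8% and 34.8% of all genes tested were called higher and lower. On Day5, 7 were higher and 1 lower, against 29.0% and 30.6% of all genes, and on Day7, 6 were higher and 1 lower, against 25.6% and 24.8%. Fewer members were higher on the later days, and the shares called lower on Day10 and Day12 were near those of all genes. On Day10, 4 were higher and 3 lower (23.5% and 26.9% of all genes), on Day12, 1 was higher and 3 were lower (21.7% and 25.6%), which became 3 higher with Day0 replicates 1 and 4 alone and 6 lower with replicates 2 and 3 alone, and on Day14 none was higher and all 10 were lower (28.2% and 34.5%). Of these 10 calls, those of Il1r1 and Casp1 were lost with library totals only, with edgeR on the 8 libraries compared and with limma on log2(FPKM + 1), and limma also lost that of Nlrp1a. The median log2 fold change of the members was 2.08 on Day3, 1.36 on Day5, 0.70 on Day7, 0.10 on Day10, -0.11 on Day12 and -0.997 on Day14, where that of all genes tested was between -0.06 and 0.00. These 6 comparisons share the Day0 libraries. In bulk tissue, fewer cells of a type and less RNA per cell cannot be told apart.

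**Figure D1:**
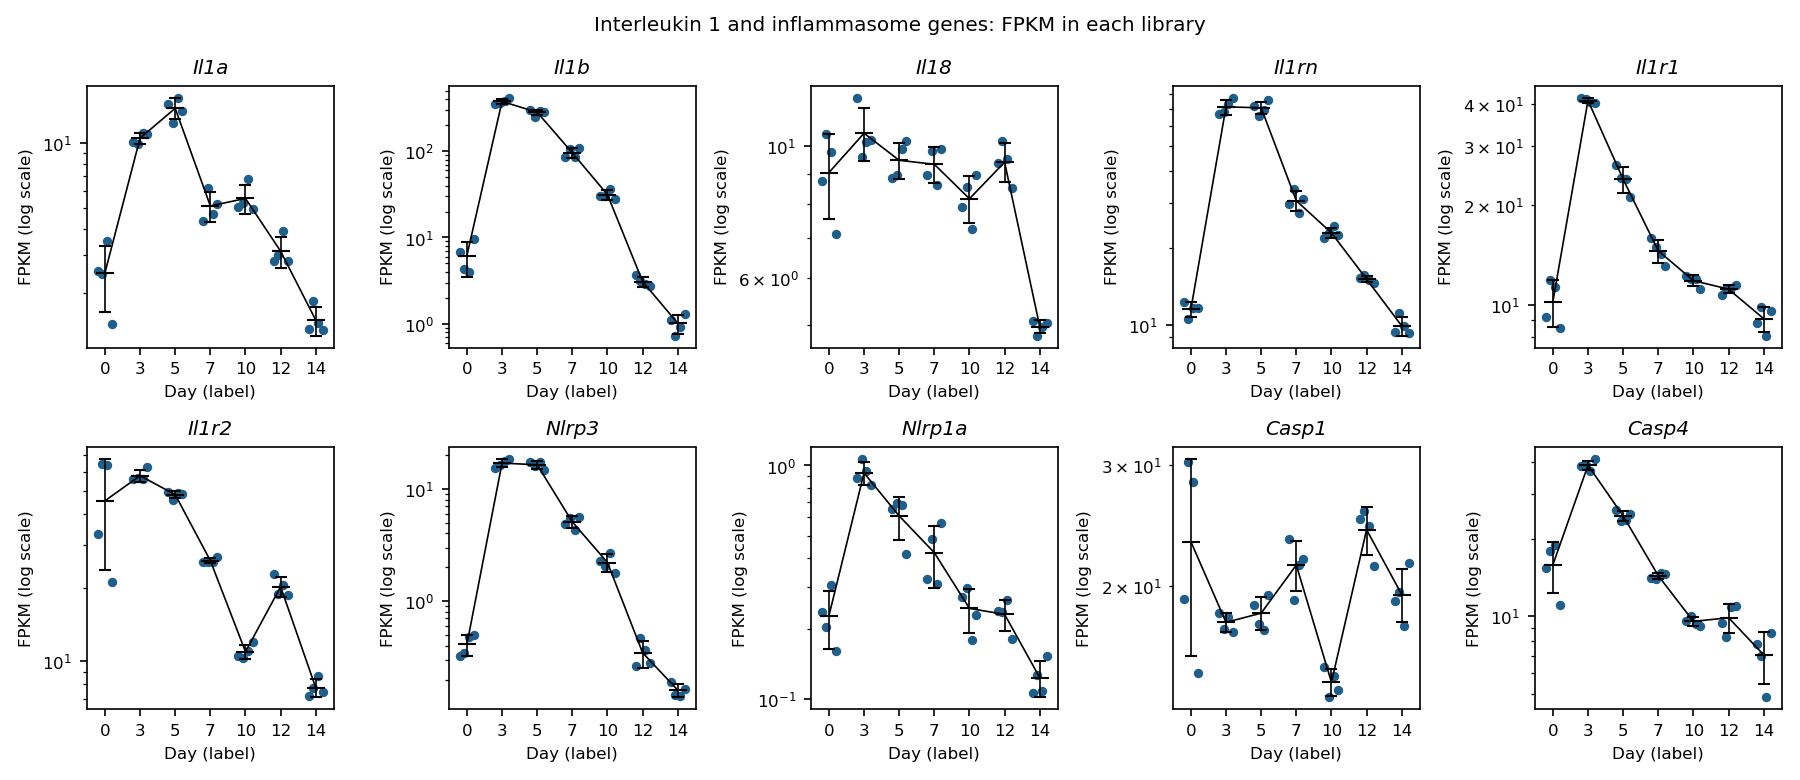
FPKM (log scale, vertical) of each of the 10 genes by labelled day (horizontal, evenly spaced). Points are the 4 libraries of a day, black bars the mean ± SD, and lines join the means. Il1b and Nlrp3 reach their highest values on Day3 and Day5 and their lowest on Day14, Casp1 stays between 13.8 and 30.3, and the Day0 points of Il1r2 and Casp1 fall into 2 separate levels.

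**Figure D2:**
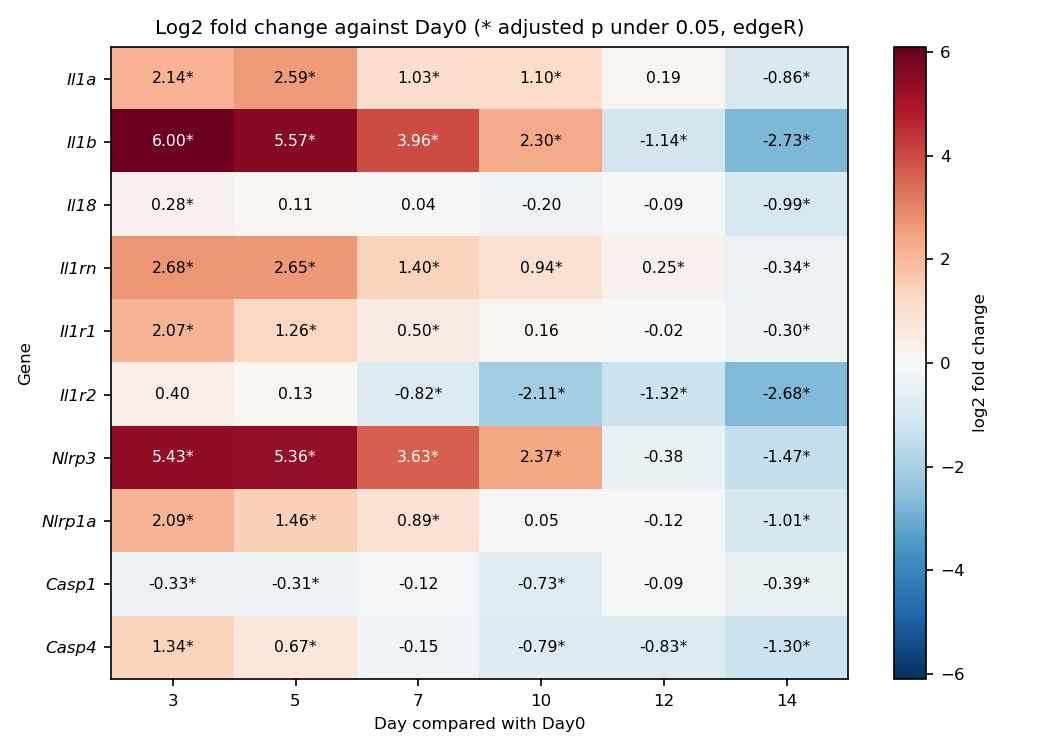
Log2 fold change of each member (rows) against Day0 on each later day (columns), from edgeR, with an asterisk where the adjusted p was under 0.05. Il1b and Nlrp3 change most, from 6.00 and 5.43 on Day3 to -2.73 and -1.47 on Day14, and the Day14 column is below 0 in every row.

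Il1b encodes interleukin 1 beta and had the widest range of the members. Its FPKM on Day0 was 6.80, 4.25, 3.95 and 9.65 in replicates 1 to 4. On Day3 it was 356, 364, 379 and 417, and on Day5 it was 303, 253, 292 and 287. Every library of both days was far above every Day0 library. The increase was 64.1-fold on Day3 (log2 fold change 6.00, standard error 0.21, adjusted p = 3.7e-19, edgeR) and 47.5-fold on Day5 (5.57, standard error 0.21). On Day7 the libraries were at 85.2, 105, 85.7 and 108, and on Day10 at 30.1, 30.5, 37.0 and 28.1. These days also lay wholly above Day0, with log2 fold changes of 3.96 and 2.30. On Day12 the values were 3.66, 3.10, 2.86 and 2.70 and on Day14 they were 1.12, 0.725, 0.909 and 1.28, so that the whole group had passed below Day0. It was -1.14 on the log2 scale on Day12 (adjusted p = 2.2e-05, edgeR) and -2.73 on Day14 (standard error 0.22, adjusted p = 2.6e-11, edgeR), a level 6.65-fold under Day0. The steepest decrease between neighbouring days was that from Day10 to Day12, a 10.9-fold decrease (log2 fold change -3.44, standard error 0.20).

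Il1a, the gene of the alarmin interleukin 1 alpha, rose less and reached its highest level later. Its FPKM was 2.53, 2.46, 3.51 and 1.44 on Day0, 10.1, 9.96, 11.2 and 10.997 on Day3, and 15.3, 12.5, 16.3 and 14.2 on Day5. The Day5 libraries lay above those of Day3, and both days lay above Day0. Against Day0 the log2 fold change was 2.14 on Day3 (standard error 0.17) and 2.59 on Day5 (standard error 0.18, adjusted p = 6.3e-13, edgeR). The step from Day3 to Day5 was 0.45 (adjusted p = 0.043, edgeR), a call lost when any of 7 of the 8 libraries of these days was left out, with values between 0.36 and 0.52. Il1a stayed between 4.32 and 6.82 on Day7 and Day10, 1.03 and 1.10 above Day0 on the log2 scale. It was 0.19 above on Day12 (adjusted p = 0.40, edgeR), which became 0.52 (adjusted p = 0.030, edgeR) against Day0 replicates 1 and 4 alone and -0.066 (adjusted p = 0.77, edgeR) against replicates 2 and 3 alone. Il1a was at 1.36, 1.83, 1.44 and 1.35 FPKM on Day14. That day was 0.86 lower than Day0 on the log2 scale (log2 fold change -0.86, standard error 0.19, adjusted p = 0.00022, edgeR), although the lowest Day0 library fell within its range.

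Il18, the third cytokine gene, moved little until the last day. Its mean FPKM was 9.03 ± 1.47 (SD, n = 4) on Day0 and between 8.16 and 10.5 on Day3 to Day12. The increase of 0.28 on Day3 (standard error 0.09, adjusted p = 0.011, edgeR) came with overlapping libraries, 8.73, 10.5, 9.79 and 7.11 on Day0 against 12.1, 9.61, 10.2 and 10.3, and was 0.11 (adjusted p = 0.27, edgeR) against Day0 replicates 2 and 3 alone and 0.51 (adjusted p = 7.2e-05, edgeR) against replicates 1 and 4 alone. The call was also lost with upper quartile normalization, with edgeR on the 8 libraries compared and with limma. No call was made on Day5, Day10 and Day12 with all Day0 libraries, whereas replicates 1 and 4 alone gave an increase of 0.31 on Day5 (adjusted p = 0.011, edgeR) and replicates 2 and 3 alone gave -0.36 on Day10 and -0.25 on Day12 (adjusted p = 0.0011 and 0.023, edgeR). On Day14 the 4 libraries were at 5.08, 4.80, 4.97 and 5.03, below every library of every other day. The log2 fold change was -0.99 against Day0 (standard error 0.10, adjusted p = 7.0e-10, edgeR) and -0.90 against Day12.

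Il1rn, the gene of the receptor antagonist, rose with Il1b but over a smaller range and with little spread. Its FPKM was 12.3, 10.5, 11.7 and 11.6 on Day0, 66.6, 67.9, 73.0 and 77.1 on Day3, and 71.4, 65.7, 69.4 and 75.5 on Day5. It rose 6.42-fold on Day3 and 6.30-fold on Day5 (log2 fold change 2.68 and 2.65, standard error 0.08 for both, adjusted p = 3.2e-21 on Day3, edgeR), and Day5 was not called different from Day3 (-0.03, standard error 0.07). It was 1.40 on Day7, 0.94 on Day10 and 0.25 on Day12 (adjusted p = 0.0062 on Day12, edgeR). Il1rn was the sole member called higher than Day0 on Day12, a call lost against Day0 replicates 1 and 4 alone (0.21, adjusted p = 0.053, edgeR) and kept against replicates 2 and 3 alone (0.31, adjusted p = 0.0038, edgeR). On Day14 it was at 9.36, 11.1, 9.93 and 9.30 FPKM. The difference from Day0 was -0.34 on the log2 scale (standard error 0.07, adjusted p = 0.00020, edgeR) and -0.23 without Day0 replicate 1. The mean had come down from 71.1 FPKM on Day3 to 9.92.

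The ratio of antagonist to agonist transcripts, taken within each library and therefore free of library scaling, turned over during healing. On Day0 Il1rn was 2.11 ± 0.77 times Il1b by FPKM (SD, n = 4), from 1.20 to 2.95. On Day3 the ratio was 0.188, with all 4 libraries between 0.185 and 0.192, so that Il1b exceeded its antagonist in each. It was 0.249 on Day5, 0.320 on Day7 and 0.734 on Day10. On Day12 Il1rn was 4.96 times Il1b and on Day14 it was 10.5 times, with libraries from 7.24 to 15.3. The mean log2 ratio differed from Day0 by -3.41 on Day3 and by 2.33 on Day14. No library of any day overlapped those of the day before or of Day0 in this ratio, and each of the 11 comparisons reached the smallest p that 4 libraries against 4 allow (exact two-sided permutation test, p = 0.0286, adjusted p = 0.0299 over the 22 ratio comparisons).

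**Figure D3:**
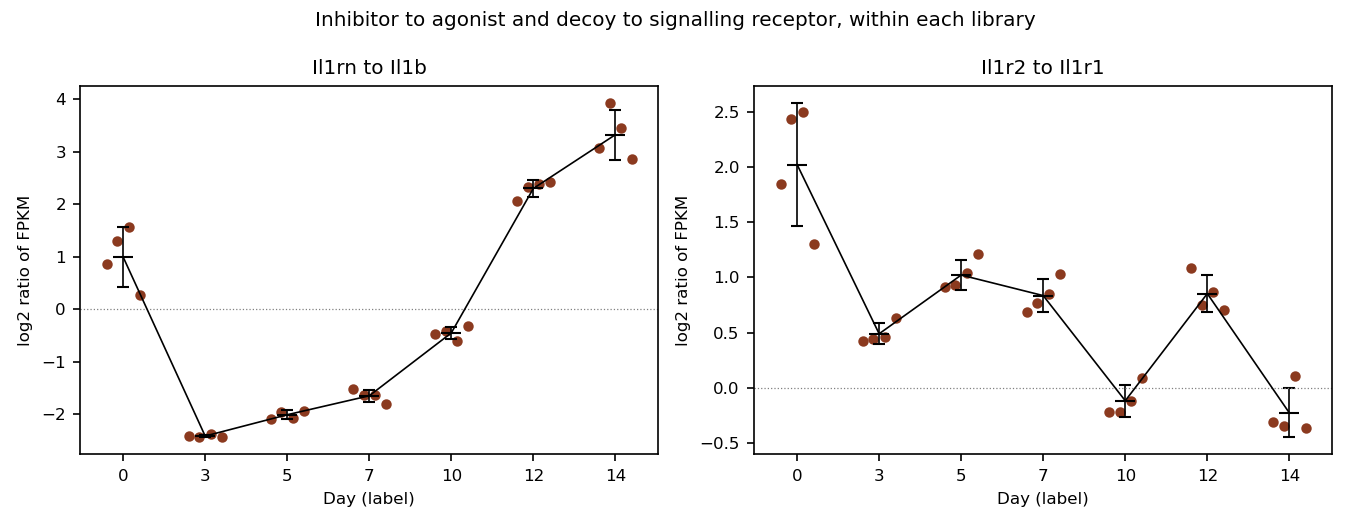
Log2 ratio of FPKM of Il1rn to Il1b (left) and of Il1r2 to Il1r1 (right) in each library, by labelled day; black bars are the mean ± SD of 4 libraries, solid lines join the means and the dotted line marks equal levels. The left ratio is lowest on Day3, at a mean of -2.41, and highest on Day14, at 3.33, and the right one falls from 2.02 on Day0 to -0.23 on Day14 with further highs on Day5 and Day12.

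Il1r1, the signalling receptor, rose on Day3 and then fell back step by step. Its FPKM was 9.20, 11.9, 11.3 and 8.50 on Day0 and 41.8, 41.7, 40.6 and 40.3 on Day3, a 4.18-fold increase (log2 fold change 2.07, standard error 0.08, adjusted p = 5.4e-18, edgeR). The mean was 23.8 on Day5, 14.5 on Day7, 11.8 on Day10, 11.1 on Day12 and 9.07 on Day14. The first wound days stood clear of Day0, and from Day10 on the libraries overlapped with it. The log2 fold change was 1.26 on Day5 and 0.50 on Day7, both called, and 0.16 on Day10 and -0.02 on Day12, neither called (adjusted p = 0.11 and 0.86, edgeR). On Day10, Day0 replicates 1 and 4 alone gave 0.36 (adjusted p = 0.00025, edgeR) and replicates 2 and 3 alone -0.019 (adjusted p = 0.85, edgeR). On Day12 these pairs gave 0.20 and -0.19, both called and opposite in sign (adjusted p = 0.033 and 0.027, edgeR). The call on Day14 (-0.30, adjusted p = 0.0020, edgeR) was lost without Day0 replicate 2 (-0.17) and against Day0 replicates 1 and 4 alone (-0.02, adjusted p = 0.84, edgeR), where replicates 2 and 3 alone gave -0.47 (adjusted p = 9.5e-07, edgeR).

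Il1r2, the decoy receptor, was the most abundant member on Day0 and was not called higher on any day. Its FPKM was 33.1, 64.3, 63.6 and 21.0 in Day0 replicates 1 to 4, the widest Day0 spread among the members. On Day3 it was 56.1, 56.6, 55.9 and 62.4, which lies between the low and the high pair of Day0 libraries. The difference of 0.40 on the log2 scale was not called (standard error 0.19, adjusted p = 0.065, edgeR). Without Day0 replicate 2, Day0 replicate 3 or Day3 replicate 1 it was called, at up to 0.62, and without Day0 replicate 4 it was 0.21. It was 1.19 (adjusted p = 4.6e-10, edgeR) against Day0 replicates 1 and 4 alone and -0.08 (adjusted p = 0.36, edgeR) against replicates 2 and 3 alone. On Day5 these pairs gave 0.88 and -0.36, both called and opposite in sign, against 0.13 (adjusted p = 0.59, edgeR) with all 4 libraries. Whether Il1r2 rose or fell early therefore depended on which Day0 libraries were used.

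The lower level of Il1r2 on Day10, Day12 and Day14 was called against either pair, but its size depended on the pair. The log2 fold changes were -1.37, -0.56 and -1.86 against Day0 replicates 1 and 4 alone. Against replicates 2 and 3 alone they were -2.60, -1.80 and -3.16. The libraries were at 25.5, 25.5, 25.6 and 26.7 FPKM on Day7, at 10.5, 10.3, 10.97 and 11.9 on Day10, at 22.8, 18.7, 20.5 and 18.7 on Day12, and at 7.14, 7.75, 8.67 and 7.44 on Day14. The gene thus fell to Day10, was higher again on Day12 and was lowest on Day14, with no overlap at any of these steps. Against Day0 it was -0.82 on the log2 scale on Day7 (standard error 0.19, adjusted p = 0.00079, edgeR), a call lost against Day0 replicates 1 and 4 alone (-0.08, adjusted p = 0.60, edgeR) and kept against replicates 2 and 3 alone (-1.31), and -2.11 on Day10, -1.32 on Day12 and -2.68 on Day14 (standard error 0.21, adjusted p = 9.1e-12, edgeR). The step from Day10 to Day12 was an increase of 0.80 (standard error 0.20, adjusted p = 0.0017, edgeR). By FPKM, Il1r2 was 4.28 ± 1.51 times Il1r1 on Day0 (SD, n = 4), 1.41 times on Day3, 2.04 on Day5, 1.79 on Day7, 0.926 on Day10, 1.82 on Day12 and 0.863 on Day14. Each of these days was below Day0 in every library (exact two-sided permutation test, p = 0.0286, adjusted p = 0.0299). Between neighbouring days the ratio also changed at each step except from Day5 to Day7 (exact permutation p = 0.114).

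Nlrp3, the sensor whose transcript has to be induced before its inflammasome can form, was close to absent on Day0 and high on Day3 and Day5. Its FPKM was 0.327, 0.345, 0.475 and 0.495 on Day0, from 52 to 76 counts per library. On Day3 it was 15.3, 16.4, 17.8 and 18.3 and on Day5 it was 17.5, 15.8, 17.5 and 14.7. These increases were 43.0-fold and 41.1-fold (log2 fold change 5.43 and 5.36, standard error 0.15 and adjusted p = 3.9e-21 on Day3, edgeR), and the 2 wound days overlapped. On Day7 the libraries were between 4.33 and 5.63 and on Day10 between 1.77 and 2.71, still wholly above Day0 by 3.63 and 2.37 on the log2 scale. On Day12 they were at 0.263, 0.471, 0.369 and 0.282, which overlapped Day0 (-0.38, adjusted p = 0.090, edgeR). This difference was called without Day12 replicate 2 (-0.56, adjusted p = 0.018, edgeR). It was also called with the Xist covariate, which carries little information, since Xist had at most 13 counts in any library. On Day14 they were at 0.189, 0.146, 0.142 and 0.166, with 23 to 30 counts per library, which was below Day0 by -1.47 on the log2 scale (standard error 0.21, adjusted p = 9.3e-07, edgeR). As for Il1b, the steepest decrease was from Day10 to Day12, a 6.77-fold decrease.

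Nlrp1a, a rodent sensor related to human NLRP1, had the fewest counts of the members, from 21 to 212 per library, and its reads may be shared with its close relative Nlrp1b, so its level is uncertain. It was at 0.235, 0.203, 0.308 and 0.160 FPKM on Day0 and at 0.883, 1.06, 0.949 and 0.821 on Day3. The libraries did not overlap, and the log2 fold change was 2.09 (standard error 0.22, adjusted p = 1.9e-09, edgeR). It was 1.46 on Day5 and 0.89 on Day7, 0.05 on Day10 and -0.12 on Day12 without a call, and -1.01 on Day14 (standard error 0.24, adjusted p = 0.00070, edgeR), a call lost with limma on log2(FPKM + 1), a scale that compresses changes of so low a level. The steps from Day3 to Day5 (-0.63) and from Day5 to Day7 (-0.57) had adjusted p-values of 0.022 and 0.038 (edgeR). The first was lost without Day5 replicate 4, the lowest library of its day, and the second when any of 5 single libraries was left out.

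Casp1, the caspase that cleaves the precursors of interleukin 1 beta and interleukin 18, was not called higher than Day0 on any day. Its FPKM was 19.2, 30.3, 28.4 and 14.9 on Day0, 18.3, 17.3, 18.0 and 17.1 on Day3, and 18.8, 17.6, 17.2 and 19.4 on Day5. The wound libraries lay within the range of Day0. The log2 fold changes of -0.33 on Day3 and -0.31 on Day5 (standard error 0.13 for both, adjusted p = 0.025 and 0.045, edgeR) were lost when any of 6 and any of 5 single libraries was left out. The exact permutation test of these days against Day0 gave p = 0.314 and 0.371. Against Day0 replicates 1 and 4 alone they were 0.15 on both days and not called (adjusted p = 0.16 and 0.20, edgeR), and against replicates 2 and 3 alone they were -0.67 and -0.64, both called. On Day7 and Day12 this pair gave increases of 0.32 and 0.37 (adjusted p = 0.0059 and 0.0022, edgeR), where replicates 2 and 3 alone gave decreases of -0.45 and -0.42. The direction of Casp1 against Day0 was thus set by the choice of Day0 libraries on these 4 days.

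Among the wound days Casp1 had a low on Day10. Its FPKM was 23.4, 19.1, 21.4 and 21.9 on Day7, 15.2, 13.8, 14.8 and 14.1 on Day10, 25.0, 25.7, 24.5 and 21.3 on Day12, and 19.0, 19.6, 17.5 and 21.6 on Day14. Every Day10 library lay below every library of Day7 and of Day12. The step down was -0.62 (adjusted p = 0.00056, edgeR) and the step up 0.65 (adjusted p = 0.00023, edgeR), with a standard error of 0.13 for both. Day10 was also called below Day0 (-0.73, adjusted p = 3.3e-05, edgeR), without overlap in CPM, while in FPKM the lowest Day0 library lay within the Day10 range. The call on Day14 (-0.39, adjusted p = 0.011, edgeR) was lost without Day0 replicate 2 or 3, at values down to -0.18, and turned to 0.13 without a call against Day0 replicates 1 and 4 alone, while replicates 2 and 3 alone gave -0.72 (adjusted p = 1.7e-09, edgeR).

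Casp4, the neighbour of Casp1, behaved differently. Its FPKM was 15.5, 18.0, 19.0 and 11.03 on Day0 and 38.6, 38.7, 36.8 and 40.8 on Day3, a 2.54-fold increase without overlap (log2 fold change 1.34, standard error 0.12, adjusted p = 2.5e-10, edgeR). It was 0.67 above Day0 on Day5 and not called on Day7 (-0.15, adjusted p = 0.35, edgeR), where Day0 replicates 2 and 3 alone gave -0.36 (adjusted p = 0.0070, edgeR) and replicates 1 and 4 alone 0.11 (adjusted p = 0.52, edgeR). On Day10 the libraries were at 9.62, 10.0, 9.38 and 9.21, all below Day0, with a log2 fold change of -0.79 (adjusted p = 8.5e-06, edgeR). It was -0.83 on Day12 and -1.30 on Day14 (standard error 0.13), where the libraries were at 7.81, 7.04, 4.85 and 8.62. Casp4 had a higher mean FPKM than Casp1 on Day3 and Day5 and a lower one on every other day.

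Whether a member's level moved among the wound days was tested over the 6 days from Day3 to Day14, with contrasts that leave out Day0 and a spread estimated from all 28 libraries. All 10 members were called in this joint test (edgeR, 5 contrasts), with an F from 6.17 for Casp1 (adjusted p = 0.00095, edgeR) to 656 for Nlrp3. From Day3 to Day5, 1 member rose and 3 fell, Il1r1, Nlrp1a and Casp4, where 12.9% and 11.4% of all genes were called higher and lower. Leaving out any of 7 single libraries gave none higher, and edgeR on the 8 libraries compared gave 5 lower, adding Il1b and Il1r2. From Day5 to Day7, none was higher and 8 members were lower (13.9% and 14.6% of all genes), and Il18 and Casp1 were not called. From Day7 to Day10, none was higher and 9 were lower (14.3% and 18.0%), and Il1a was not called (0.07, adjusted p = 0.80, edgeR). The call of Il18 at this step (-0.24, adjusted p = 0.045, edgeR) was lost when any of 6 of the 8 libraries was left out. From Day10 to Day12, Il1r2 and Casp1 were higher (18.7%) and 4 members were lower (20.7%), which were Il1a, Il1b, Il1rn and Nlrp3. From Day12 to Day14, none was higher and 9 were lower (19.9% and 25.3%), and Casp1 was not called (-0.30, adjusted p = 0.062, edgeR). The calls of Nlrp3 and Nlrp1a at this step were lost with limma on log2(FPKM + 1). Of 110 comparisons of a member between days, 81 were called, and 67 of these calls were kept in every setting tried other than the one that required a log2 fold change over 1.5.

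The stricter criterion that the study's methods name, more than 1.5 on the log2 scale at an unadjusted P under 0.05, kept the members with the largest changes. On Day3 it called 6 members higher, Il1a, Il1b, Il1rn, Il1r1, Nlrp3 and Nlrp1a, and none lower (6.50% and 12.4% of all genes tested). On Day5, 4 were higher, Il1a, Il1b, Il1rn and Nlrp3, and none lower (5.61% and 8.31%), and on Day7, 2 were higher, Il1b and Nlrp3, and none lower (4.66% and 4.74%). On Day10 the same 2 were higher and Il1r2 was lower (4.33% and 5.14%), on Day12 no member passed (3.89% and 3.51%), and on Day14 none was higher and 2 were lower, Il1b and Il1r2 (5.15% and 8.83%). Between neighbouring days no member passed as higher, with a background of 2.23% to Day5, 2.50% to Day7, 1.39% to Day10, 3.47% to Day12 and 0.790% to Day14. Passing as lower were none to Day5 (0.685%), Il1a, Il1b and Nlrp3 to Day7 (1.16%), Il1b to Day10 (3.22%), Il1b and Nlrp3 to Day12 (2.54%) and Il1b to Day14 (2.78%). Il1b thus passed at each step after Day5.

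The order of the levels changed with the day. By mean FPKM, Il1r2 was first on Day0 with 45.5 ± 21.9 (SD, n = 4), followed by Casp1 with 23.2 ± 7.37, Casp4 with 15.9 ± 3.55, Il1rn with 11.5 ± 0.73, Il1r1 with 10.2 ± 1.61, Il18 and Il1b with 6.16 ± 2.65, and neighbours in this order down to Il1b overlapped. On Day3, Il1b was first with 379 ± 26.9, then Il1rn with 71.1 ± 4.84 and Il1r2 with 57.7 ± 3.13, each without overlap with the next. Il1b stayed first to Day10. On Day12 and Day14, Casp1 was first with 24.1 ± 1.93 and 19.4 ± 1.71, overlapping with Il1r2 on Day12 and with no member on Day14. Nlrp1a was lowest on all 7 days, with Nlrp3 next to it on each day other than Day3 and Day5.

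For each member the genes with the most similar course were taken as those with the highest Pearson correlation of log2 CPM over the 28 libraries, among 14683 genes with a mean of at least 1 CPM. These values are descriptions, since all libraries of a day share its place in the course. The closest to Il1b were the member Nlrp3, Arg1 and Trem3 (r = 0.99 for each). The closest to Nlrp3 were Il1b, Cxcr2, the neutrophil chemokine receptor, and Trem3. Il1rn was closest to Sdcbp, Ikbke and Prg4 (r = 0.99, 0.98 and 0.98), and Il1a to Igsf6, Cacna1d and Il1rn (0.97 to 0.96). Il1r1 was closest to the receptor genes Il4ra and Il17ra and to Mxd1 (0.99 to 0.98). Il1r2 was closest to Alox5, the gene of the lipoxygenase that starts leukotriene synthesis, Naaa and Dok2 (0.98 to 0.97), and Il18 to P2ry13, Otulinl and Gng2 (0.96 to 0.94). Nlrp1a was closest to Actr2, Klf7 and Lcp2 (0.97), and Casp4 to Pde4b, Relt and Arhgap45 (0.98 to 0.97). Casp1 had the weakest matches, Sprr4, 4930438A08Rik and Col4a4 (0.91 to 0.86), and its correlation with the other members lay between -0.14 and 0.47.

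Other genes of the system were taken from 7 lists with 72 genes, 71 of which had enough counts for the test; Nlrp6 had at most 6 counts. Among genes that interleukin 1 is known to induce, 17 of 19 were higher on Day3 and none of the 19 was called lower, against 31.8% and 34.8% of all genes tested. The largest increases were those of Cxcl5, a chemokine for neutrophils (log2 fold change 9.05, standard error 0.30), and Saa3, an acute phase protein (8.06, standard error 0.61). On Day12, 10 of the 19 were lower and on Day14, 14, against 25.6% and 34.5% of all genes, with Ccl20 at -4.05 (standard error 0.74) and Cxcl2 at -2.69 (standard error 0.65), while Nos2, the inducible nitric oxide synthase, was 0.35 above Day0 (adjusted p = 0.029, edgeR). The median of this list was 3.40 on Day3 and -0.88 on Day14, against -0.03 and -0.06 for all genes.

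Of 9 other inflammasome sensors, 8 were higher on Day3, with Nlrp12 at 3.95 and Mefv, the gene of pyrin, at 3.49, and 1 was lower, Nlrp10, at -1.72 (standard error 0.16). On Day14 all 9 were lower, with Nlrp12 at -2.43 and Mefv at -1.95. Of 12 genes that carry the receptor's signal, 9 were higher on Day3, led by the adaptor Myd88 (1.77, standard error 0.06) and the kinase gene Irak2 (1.34, standard error 0.06), and Tab1 was lower (-0.23). On Day14, 9 were lower, led by Irak3, a brake on this signal (-0.94), and Tollip (-0.54), and Tab1 was higher (0.29). Among 7 receptor partners and binding proteins, Il18rap (3.41) and Il18bp, the secreted inhibitor of interleukin 18 (1.63), led 4 that were higher on Day3, and Il18r1 (-0.59) and Sigirr (-0.52) were lower. The subunits of the interleukin 18 receptor thus moved in opposite directions. On Day14, 6 of the 7 were lower, led by Il1rl1, the receptor of interleukin 33 (-2.62), and Il18r1 (-1.61).

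Among 13 adaptors and regulators, 6 were higher on Day3, led by Pstpip1 (1.75), which binds pyrin, and Casp8 (1.21), and Txnip (-0.91) and Gbp5 (-0.50) were lower. On Day14, 9 were lower, led by the protease inhibitor gene Serpinb1a (-1.32) and Gbp5 (-1.26), and Panx1, a channel gene, was higher (0.82). Of 6 genes for pores and release, 5 were higher on Day3, led by Gsdme (1.63) and Ninj1 (1.04), which act in membrane pore formation and rupture, and the calpain gene Capn1 was lower (-0.40). On Day14, 5 were lower, led by Gsdmd (-0.82) and Ninj1 (-0.52). Of 5 proteases of neutrophils and mast cells that can cleave interleukin 1, Mmp9 was higher on Day3 (1.81, standard error 0.25) and 2 were lower, among them the mast cell chymase gene Cma1 (-0.64). On Day14, 4 were lower, led by Mmp9 (-3.63) and Cma1 (-1.51). The shares of all genes given above for Day3 and Day14 are the background of each list, and 6 of 13 adaptors higher and 2 of 5 proteases lower on Day3 are not far from them. All values are log2 fold changes against Day0, and these lists were not computed with single pairs of Day0 libraries.

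**Figure D4:**
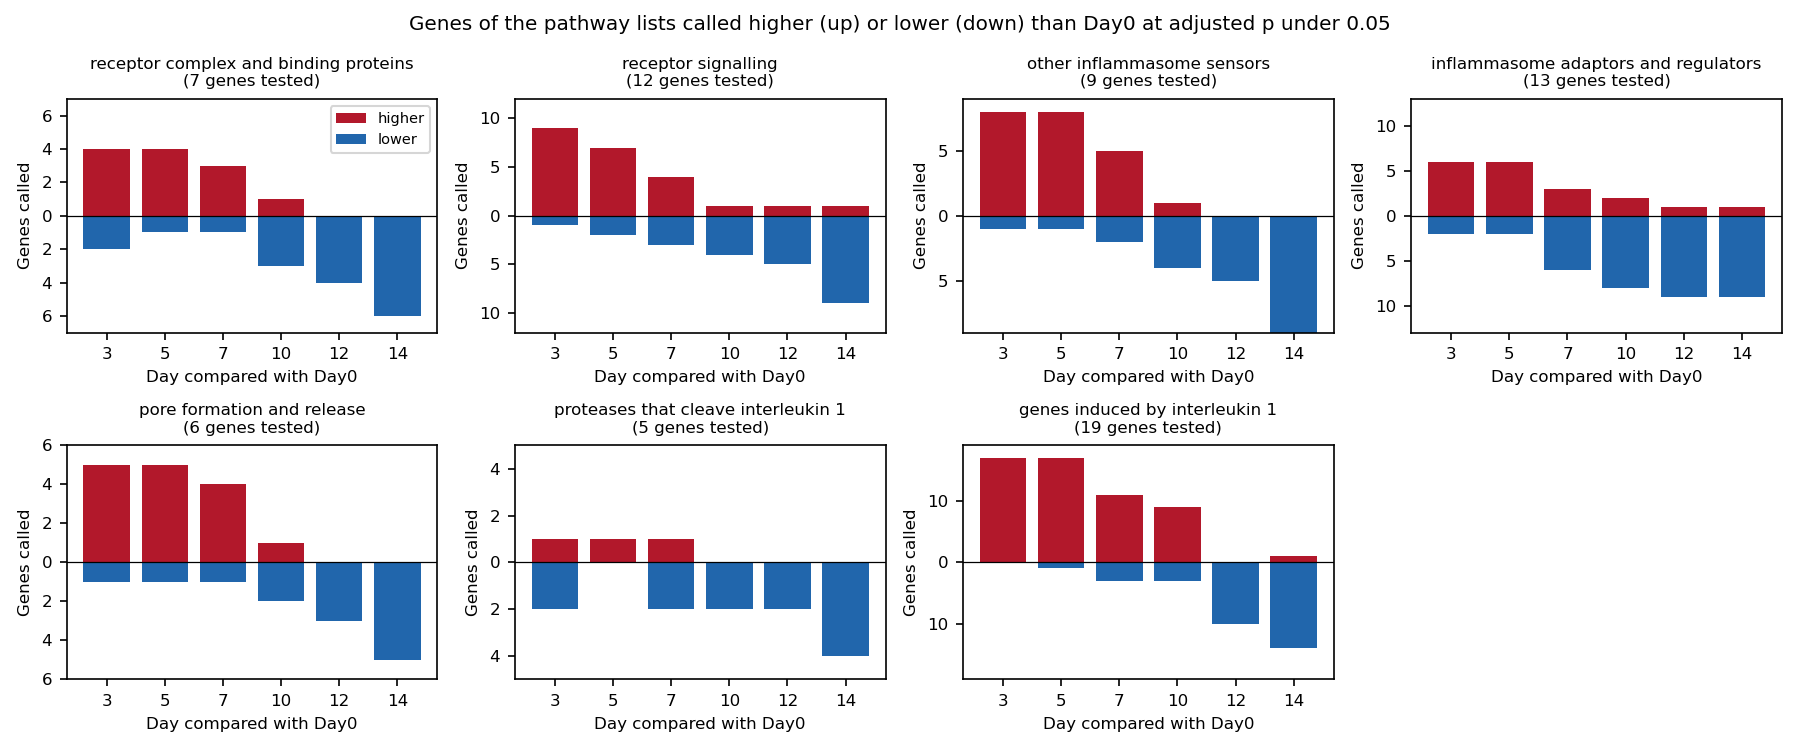
Number of genes in each of the 7 lists called higher (upward bars) or lower (downward bars) than Day0 at an adjusted p under 0.05 (edgeR), by day; each vertical axis runs to the number of genes tested in the list. In the list of genes induced by interleukin 1, 17 of 19 are higher on Day3 and 14 are lower on Day14.

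Markers of cell types moved with these genes. The summed level of 8 neutrophil markers ran from 16.4 to 43.8 CPM on Day0, from 4501 to 5674 on Day3, from 1651 to 2072 on Day5, from 564 to 984 on Day7, from 227 to 251 on Day10, from 20.4 to 23.3 on Day12 and from 15.2 to 18.9 on Day14. The defining marker Ly6g was at 0 in all libraries of Day0 and Day12. From Day3 to Day5 the neutrophil sum fell, Nlrp3 changed by -0.07 (adjusted p = 0.73, edgeR) and Il1b by -0.43 (adjusted p = 0.060, edgeR). Every Day5 library of Il1b lay below every Day3 library. Its decrease was called with edgeR on the 8 libraries compared and without Day3 replicate 1. The sum of 8 monocyte and macrophage markers ran from 1638 to 2566 CPM on Day0, from 5259 to 5562 on Day3, from 5110 to 5467 on Day5, from 3546 to 3851 on Day7, from 2141 to 2362 on Day10, from 1787 to 2002 on Day12 and from 825 to 889 on Day14. Among the Day0 libraries, replicates 1 and 4 had neutrophil sums of 43.8 and 38.8 and the higher Il1b (6.80 and 9.65 FPKM), and replicates 2 and 3 had sums of 16.4 and 17.1 and the lower Il1b (4.25 and 3.95). Nlrp3 did not follow this split, at 0.327 and 0.495 FPKM in replicates 1 and 4 and at 0.345 and 0.475 in replicates 2 and 3. Hair follicle markers summed to 185 to 1406 CPM on Day0, to 2.70 to 8.71 on Day3 and to 6.45 to 11.6 on Day5. They summed to 731 to 1006 on Day7, when Il1r2 was lower than on Day5 and Casp1 was not called different. The sums were 192 to 225 on Day10, 3218 to 4351 on Day12, when Il1r2 and Casp1 had risen again, and 3066 to 4122 on Day14, when Il1r2 was at its lowest. The part of these cell types in the changes of the members was not tested.

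**Figure D5:**
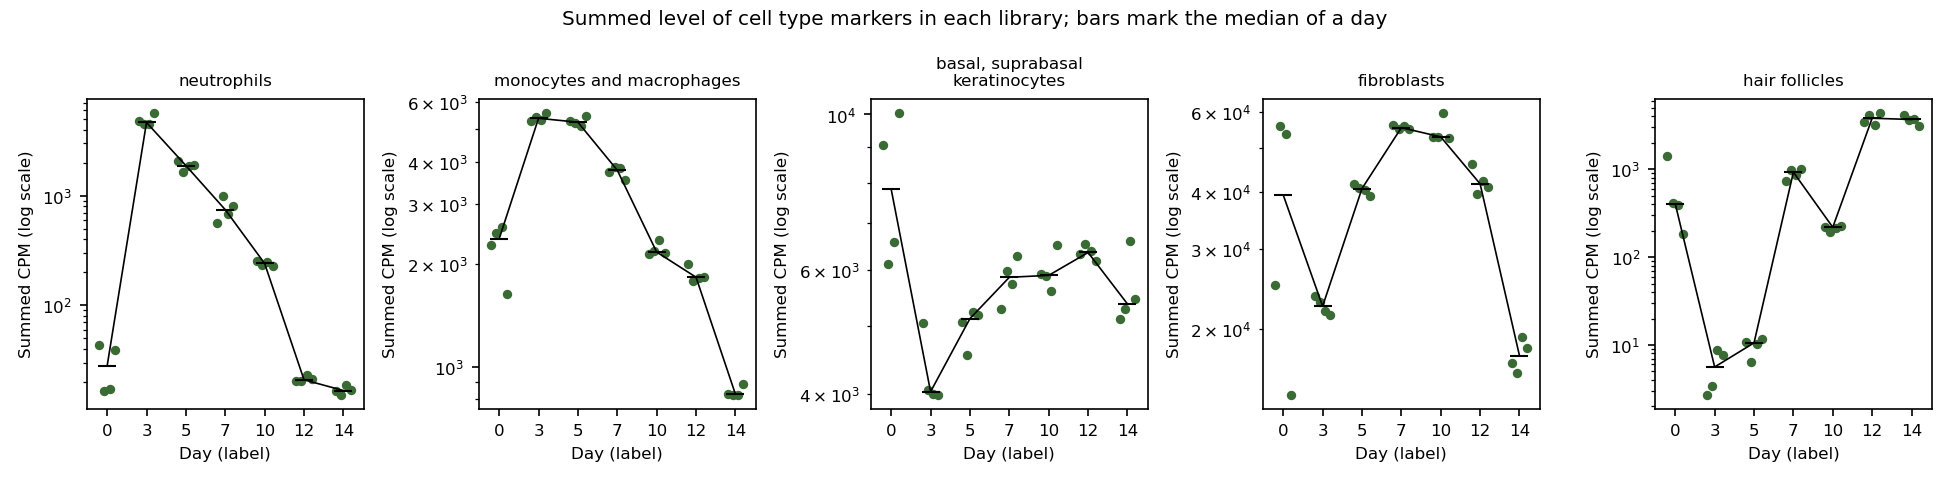
Summed CPM (log scale) of the markers of 5 cell types in each library, by labelled day; points are libraries and black bars the median of a day. Neutrophil markers have a median of 28 on Day0, 4650 on Day3 and 16.7 on Day14, and fibroblast markers run from 14282 to 55953 among the Day0 libraries.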

How the data were processed

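Libraries from total RNA of 28 skin samples were made with a VAHTS Universal V6 kit. As deposited by the authors, the files hold raw counts per gene symbol and FPKM values, the latter being the same counts divided by 1 length per gene (1489 to 6138 bases for the members) and by the library total. Per the labels, reads were filtered with fastp and assigned on mm10. The aligner, counter, annotation and strandedness are not given in the sources used here, so reads of overlapping or near-identical genes may be shared.

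Days were compared by edgeR 4.0.16 in R 4.3.3 (TMM, filterByExpr, glmQLFit and glmQLFTest, two-sided, with 21 residual degrees of freedom from a joint fit of the 28 libraries), with Benjamini-Hochberg adjustment over 18107 genes. Of these steps, the edgeR fit alone was run on a simulated data set, for Day3 against Day0. Overlap of libraries and single-gene exact permutation tests used log2 CPM (prior count 2) unless FPKM is named. Ratios used FPKM and an exact permutation test. Gene positions and promoters came from RefSeq tables. The named pathway genes were, per list, the 2 largest increases and 2 largest decreases on Day3 and on Day14 with an adjusted p under 0.05 and at least 1 CPM in the higher group. The members, gene lists, marker lists and tests were chosen with earlier results of these data known. No pair of libraries of a day agreed within counting noise (median chi-square per gene at least 1.47, against 0.455 for counting noise alone). Other settings were normalization by DESeq2's size factors, by upper quartile or by totals alone, leaving out the filter or requiring 10 counts in each library, the test of DESeq2 1.42.0, edgeR on the 8 libraries compared, limma 3.58.1 on log2(FPKM + 1), the replicate number as a block, Xist as a covariate (at most 13 counts in any library), the criterion of the study's methods (log2 fold change over 1.5 and P under 0.05), and each library left out. The fits with one pair of Day0 libraries alone were added after seeing the data.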

Additional observations from a re-analysis of the deposited data

Results flagged for a closer look

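Of 84 groups of 4 libraries tested, 4 had 1 library far from the other 3 relative to the group's range, and chance alone would give about 4. Il1a in Day10 replicate 3 had a log2 CPM of 3.77, against 3.27 to 3.36 in the other libraries of that day. Il1r2 in Day3 replicate 4 was at 7.49, against 7.30 to 7.33. Nlrp1a in Day5 replicate 4 was at 1.22, against 1.83 to 1.91. The log2 ratio of Il1r2 to Il1r1 in Day14 replicate 3 was 0.10, against -0.36 to -0.31.

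For 8 members the difference from Day0 had opposite signs early and late, and the difference between the days concerned was itself tested. Between Day14 and Day3 the log2 fold change was -8.74 for Il1b, -6.90 for Nlrp3, -3.09 for Nlrp1a, -3.03 for Il1rn, -2.64 for Casp4, -2.36 for Il1r1 and -1.26 for Il18, and between Day14 and Day5 it was -3.45 for Il1a. The adjusted p of these differences was at most 2.7e-12 (edgeR, Benjamini-Hochberg). These contrasts leave out Day0, but the members and days were picked by their calls against Day0 in the same libraries. The differences could therefore hardly fail to be called, and their p-values give no separate support. The sign relative to Day0 is less firm for Il18 on Day3 and for Il1r1 on Day14, where the call was lost in several settings as described above.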

How the results depend on the processing

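The joint test over the wound days called all 10 members with the replicate block, with DESeq2 and with each library left out. Both ratios kept their direction and their side of the threshold in each setting whose test could reach it; with 3 libraries against 4 the smallest exact p is 0.0571. Their leave-one-out ranges ran from -3.66 to -3.22 (Il1rn to Il1b) and from -1.77 to -1.37 (Il1r2 to Il1r1) on Day3 and from 2.09 to 2.52 and -2.49 to -2.09 on Day14.

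On Day3 the number called lower than Day0 was 0 with edgeR on 8 libraries, limma and Day0 replicates 1 and 4 only, and from 0 to 1 with single libraries left out. On Day5 it was 0 with these settings and with the replicate block, 2 with Day0 replicates 2 and 3 only, and from 0 to 1 with single libraries left out. On Day7 it was 0 with edgeR on 8 libraries and with Day0 replicates 1 and 4 only, 3 with replicates 2 and 3 only, and from 1 to 3 with single libraries left out. On Day12 the number called higher was 3 with Day0 replicates 1 and 4 only, and the number called lower 6 with replicates 2 and 3 only. From Day3 to Day5 the number called higher was from 0 to 1 with single libraries left out, and the number called lower 5 with edgeR on 8 libraries. On Day14 the number called lower ran from 8 to 10 with single libraries left out. With a log2 fold change over 1.5 and P under 0.05, the numbers higher were 4, 2, 2 and 0 on Day5, Day7, Day10 and Day12, and the numbers lower 0, 0, 0, 1, 0 and 2 on Day3, Day5, Day7, Day10, Day12 and Day14. Between neighbouring days this criterion gave 0 higher and 0 lower from Day3 to Day5, 3 lower to Day7, 1 lower to Day10, 0 higher and 2 lower to Day12 and 1 lower to Day14.

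Replicate numbers did not pair the libraries, since 1 of 44 same-numbered pairs had a correlation of deviations above 0.1, and the replicate block otherwise changed no count of members by over 1.5 times.

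Signs turned for the values below, most of them near 0 with all libraries. Casp1 on Day3, Day5 and Day14 was called lower with all libraries and turned without a call, and outside the fits with one Day0 pair no value with a turned sign was called. With Day0 replicates 1 and 4 only, Casp1 was at 0.15, 0.15, 0.32, 0.37 and 0.13 on Day3, Day5, Day7, Day12 and Day14, Casp4 at 0.11 on Day7, and Il18, Il1r1 and Nlrp1a at 0.11, 0.20 and 0.084 on Day12. With replicates 2 and 3 only, Il1r2 was at -0.085 and -0.36 on Day3 and Day5, Il18 at -0.052 and -0.12 on Day5 and Day7, Il1r1 and Nlrp1a at -0.019 and -0.12 on Day10, and Il1a at -0.066 on Day12. On Day12, Il18, Il1r1, Nlrp1a and Casp1 were at 0.058, 0.12, 0.020 and 0.057 with library totals only and at 0.062, 0.13, 0.0051 and 0.11 with limma. From Day10 to Day12, Casp4 was at 0.048 with library totals only, 0.00043 with the Xist covariate and 0.037 with limma, and Il1rn was at 0.0073 from Day3 to Day5 with upper quartile normalization. With single libraries left out, ranges that crossed 0 were -0.10 to 0.33 for Il1r2 on Day5, -0.057 to 0.12 for Il18 and -0.28 to 0.041 for Casp1 on Day7, -0.081 to 0.23 for Nlrp1a on Day10, and -0.24 to 0.064 for Nlrp1a, -0.23 to 0.075 for Casp1 and -0.081 to 0.067 for Il1r1 on Day12. They were -0.10 to 0.0080 for Il1rn and -0.020 to 0.050 for Casp1 from Day3 to Day5, -0.063 to 0.18 for Il1a from Day7 to Day10, and -0.094 to 0.035 for Casp4 from Day10 to Day12. The cause was not tested. Upper quartile normalization moved the median of all genes on Day3 to -0.12, and library totals alone moved that on Day12 to 0.11.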

Other observations

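Further marker lists were summed in the same way. The summed level of 4 leukocyte markers was between 410 and 516 CPM on Day0, between 1326 and 1413 on Day3 and between 234 and 250 on Day14. That of 4 wound edge keratinocyte markers was between 468 and 709 CPM on Day0, between 2453 and 2984 on Day3 and between 1485 and 1792 on Day14, where 2 of the 4 were called higher than Day0. T and NK cell markers summed to between 28.8 and 33.6 CPM on Day0 and to at most 22.8 on any later day. Endothelial markers summed to between 354 and 487 CPM on Day0, between 731 and 793 on Day3 and between 343 and 397 on Day14. Adipocyte markers stayed between 1007 and 1711 CPM on all days. Basal and suprabasal keratinocyte markers summed to between 6117 and 10048 CPM on Day0 and between 3987 and 5045 on Day3, where 6 of 8 were called lower, and to between 5114 and 6602 on Day14. Skeletal muscle markers summed to between 16376 and 27456 CPM on Day0 and between 3648 and 9353 on the later days, with all 5 called lower on each. Fibroblast markers summed to between 21458 and 23554 CPM on Day3, between 55033 and 56029 on Day7 and between 15973 and 19138 on Day14, where all 6 were called lower than Day0. The Day0 sums ran from 14282 in replicate 4, below every Day14 library, to 55953 in replicate 2. The shares of all genes called on each day, given above, are the background of these marker counts.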
